A study of Rattus norvegicus with 12 samples.

Results

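Aminoacyl-tRNA synthetases join each amino acid to its transfer RNA, and their transcripts were measured here in the sensory neuron-like line ND7/23 after menthol, Wnt3a or both. The genes were those whose KEGG annotation, deposited beside the expression values, names the rat pathway of aminoacyl-tRNA biosynthesis: 45 of 21556 genes. They comprised 19 cytosolic synthetases, 17 mitochondrial synthetases, 2 synthetases that serve both compartments, 6 accessory enzymes and 1 copy of *Ears2*. Of the mitochondrial genes, 16 had a symbol ending in 2, and the other, deposited as *LOC100911305*, is *Mars2* by its gene ID in RefSeq. ND7/23 is a hybrid of rat dorsal root ganglion neurons and the mouse neuroblastoma N18Tg2. The 12 libraries fell into 4 groups of 3: control, menthol at 100 μM, Wnt3a at 100 ng/ml, and the 2 stimuli combined at the same doses, with 6 h of exposure in each case. Menthol activates the cold receptor TRPM8, and Wnt3a is a secreted protein that stabilises β-catenin. The study sequenced these cells to ask how menthol acts on Wnt3a signaling. All groups came from the same line, and whether replicates were separate cultures is not given in the sources used here, so p-values measure the spread between libraries, which may be technical.

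A synthetase recognises its amino acid and the transfer RNAs that carry it, and the charged transfer RNA is then brought to the ribosome by an elongation factor. Mammalian cells make most of these enzymes from separate nuclear genes for the cytosol and for the mitochondrion, while *Gars* and *Kars* each give both forms. Several cytosolic enzymes sit in a multisynthetase complex held together by the scaffold proteins AIMP1, AIMP2 and EEF1E1. When charged transfer RNA runs short, the kinase GCN2 slows translation and raises the transcription factor ATF4, whose known targets include genes of amino acid synthesis, amino acid transporters and many cytosolic synthetases.

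The values were FPKM, in which read counts are divided by gene length and library size, so levels could be compared between genes. This holds where the length used is that of the transcripts present, which was not checked. Where it is too long, the FPKM is too low. The lengths were 1929 to 6046 bases for the cytosolic genes and 1590 to 8018 for the mitochondrial ones. The recovered totals were 36920743 to 38842283 reads on genes per library, and the deepest library held 1.05 times the reads of the shallowest. Of 9 neuronal markers, *Uchl1* (94.2 to 111 FPKM) and *Isl1* (9.28 to 17.6 FPKM) were clearly measured, while *Tubb3*, *Nefl*, *Nefm*, *Prph*, *Gap43*, *Stmn2* and *Pou4f1* stayed at or under 0.213 FPKM in every library. The defining neuronal cytoskeleton genes were thus near 0 under a neuronal label. Of the 4 fibroblast markers, *Col1a2* was measured at 109 to 126 FPKM and *Col1a1* at 5.91 to 7.83 FPKM, with *Dcn* and *Lum* at or under 0.325 FPKM. Muscle, Schwann and immune markers summed to at most 9.72, 1.10 and 1.82 FPKM. The reads were aligned to a rat genome, and how mouse transcripts of the hybrid were counted is not given in the sources used here. In bulk RNA, fewer cells of a kind and less RNA per cell cannot be told apart.

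In control cells the cytosolic enzymes were far more abundant than the mitochondrial ones. The 19 cytosolic genes had a median of 54.2 FPKM, against 3.82 FPKM for the 17 mitochondrial genes and 10.3 FPKM for the 11451 genes tested. *Sars1* (seryl-tRNA synthetase, 137 ± 2.1 FPKM, SD, n = 3), *Aars1* (alanyl, 118 ± 1.7) and *Nars1* (asparaginyl, 97.3 ± 1.8) were the highest of the cytosolic genes. *Tars3*, a paralogue of the threonyl enzyme *Tars1*, was the lowest at 5.24 ± 0.26 FPKM, followed by *Wars1* (tryptophanyl, 18.1 ± 0.76) and *Farsa* (a subunit of the phenylalanyl enzyme, 29.1 ± 0.86). In control means, 17 of the 19 cytosolic genes lay above every mitochondrial gene. The 2 genes that serve both compartments lay among the abundant cytosolic ones, *Kars* (lysyl) at 92.3 ± 0.65 and *Gars* (glycyl) at 86.2 ± 0.71 FPKM.

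**Figure D1:**
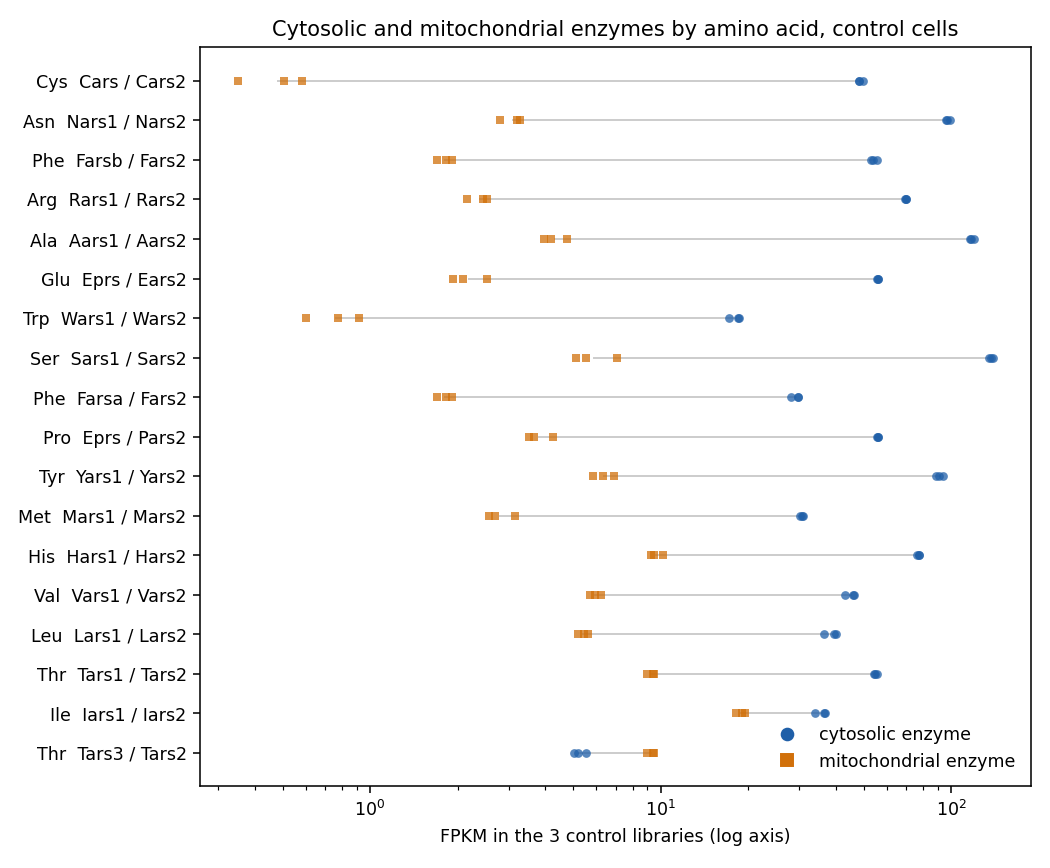
FPKM of the cytosolic enzyme (circles) and the mitochondrial enzyme (squares) for each amino acid in the 3 control libraries, on a log axis. The 18 of the 19 pairs drawn are ordered by their ratio, averaged over these libraries on the log2 scale. *LOC100911305* is drawn as Mars2. The cytosolic enzyme was the higher one in 17 of the 18 pairs drawn, and the gap ran from 1.89-fold for isoleucine to 104-fold for cysteine.

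Among mitochondrial synthetases, *Iars2* (isoleucyl) stood highest at 18.9 ± 0.70 FPKM, about the level of *Wars1*, and *Hars2* (histidyl, 9.64 ± 0.47) and *Tars2* (threonyl, 9.29 ± 0.25) came next. The lowest tested were *Wars2* (tryptophanyl, 0.763 ± 0.16), *Fars2* (phenylalanyl, 1.81 ± 0.11) and *Ears2* (glutamyl, 2.18 ± 0.31). *Cars2* (cysteinyl) fell just under the minimum of a mean of 0.5 FPKM and was not tested, at 0.583, 0.507 and 0.351 FPKM in control cells. It rested on 90 to 152 reads per library, and *Wars2*, just above the minimum, on 112 to 171. The copy *Ears2l1*, listed in RefSeq also as *Ears2-ps1*, had 0.867 ± 0.19 FPKM, and its reads and those of *Ears2* may be shared between the 2 genes.

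For 17 amino acids both a cytosolic and a mitochondrial gene were measured, which gave 19 pairs, since phenylalanine and threonine have 2 cytosolic genes each and *Eprs*, which joins glutamate and proline, pairs with *Ears2* and with *Pars2*. Ratios were averaged over the 3 libraries of a group on the log2 scale. The median pair differed 14.7-fold in control cells (3.87 on the log2 scale). The cytosolic enzyme was higher in every library for 18 pairs. The exception was *Tars3*, at 0.564 of the level of *Tars2*. The smallest ratio in favour of the cytosol was that of *Iars1* to *Iars2*, 1.89-fold. The largest were those of *Cars* to *Cars2*, 104-fold, and *Nars1* to *Nars2*, 31.5-fold. The lengths used were 3344 bases for *Cars* and 6629 for *Cars2*, and a shorter true transcript of *Cars2* would make its ratio too large.

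Mitochondria have no glutaminyl-tRNA synthetase of their own. Their glutaminyl-tRNA is made by an amidotransferase of 3 subunits, of which *Gatc* had 15.6 ± 0.78, *Gatb* 5.73 ± 0.32 and *Qrsl1* 3.13 ± 0.74 FPKM in control cells. *Mtfmt*, which formylates the initiator methionyl-tRNA of mitochondria, had 9.46 ± 0.11 FPKM. *Pstk* and *Sepsecs*, which turn seryl-tRNA into selenocysteinyl-tRNA, had 4.16 ± 0.73 and 7.58 ± 0.32 FPKM. The abundant cytosolic genes were also steadier between control libraries than the mitochondrial ones, with a median coefficient of variation of 1.89% against 8.23%. It was 4.15% for all genes tested and 0.761% for the 2 genes that serve both compartments. A small change was therefore easier to measure in the cytosolic set than in the mitochondrial one.

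With menthol, 4 members rose, and all of them were cytosolic synthetases: *Iars1*, *Nars1*, *Tars1* and *Yars1*. The rises were small, 1.07 to 1.12-fold. They were called in the comparison of the 6 libraries with menthol against the 6 without, which averages the change with menthol in the absence and in the presence of Wnt3a, by limma on log2(FPKM + 0.1) at an adjusted p under 0.05 over 11451 genes. This comparison called 132 genes in all (1.15%), 56 of them higher (0.489%). No member passed the study's additional threshold of a 2-fold change in this comparison, which 0.00873% of genes did.

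*Iars1*, the isoleucyl-tRNA synthetase, had 36.8, 34.0 and 36.6 FPKM in control and 34.8, 32.6 and 34.6 FPKM in Wnt3a cells. It had 38.6, 39.2 and 39.1 FPKM with menthol and 39.1, 38.7 and 40.7 FPKM with both stimuli. Every library with menthol thus lay above every library without it, and the log2 change was 0.17 (SE 0.027, limma adjusted p = 0.00884). *Nars1*, the asparaginyl-tRNA synthetase, had 95.6, 99.3 and 97.0 FPKM in control, 99.9, 102.7 and 97.5 with Wnt3a, 104.4, 108.2 and 110.1 with menthol and 102.7, 111.9 and 106.7 with both stimuli. Its lowest library with menthol lay just above its highest without, and the log2 change was 0.12 (SE 0.025, limma adjusted p = 0.0318).

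*Tars1*, the threonyl-tRNA synthetase, had 54.0, 54.6 and 55.7 FPKM in control, 55.3, 54.8 and 55.1 with Wnt3a, 56.0, 59.2 and 60.3 with menthol and 59.3, 59.3 and 59.99 with both stimuli. The groups did not overlap, although menthol replicate 1 was close to the highest control, and the log2 change was 0.10 (SE 0.022, limma adjusted p = 0.0353). *Yars1*, the tyrosyl-tRNA synthetase, had 90.9, 93.9 and 88.9 FPKM in control, 91.7, 94.3 and 90.5 with Wnt3a, 95.1, 104.0 and 102.6 with menthol and 96.6, 98.5 and 101.9 with both stimuli. Here too all 6 libraries with menthol lay above the other 6, with a log2 change of 0.12 (SE 0.026, limma adjusted p = 0.0405).

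**Figure D2:**
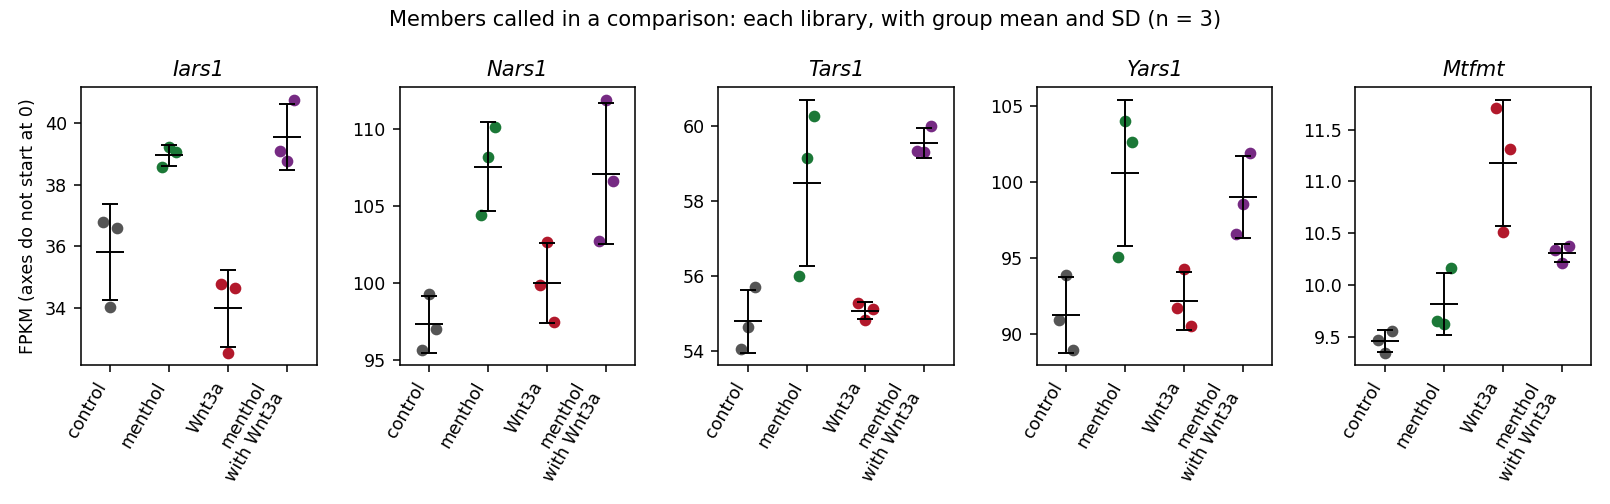
FPKM of the 5 members called in a comparison, with each of the 12 libraries as a point and the group mean and SD (n = 3) in black; the vertical axes do not start at 0. For *Iars1*, *Nars1*, *Tars1* and *Yars1* the libraries with menthol lay above those without, and for *Mtfmt* the Wnt3a libraries lay highest, at 10.5 to 11.7 FPKM.

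Of these calls, that of *Iars1* held whichever library was left out, with limma adjusted p from 0.0144 to 0.0301. The other calls rested on the full set of 12. *Nars1* stayed called only without Wnt3a replicate 2, menthol replicate 1 or menthol with Wnt3a replicate 1, *Yars1* only without either of the last 2, and *Tars1* only without menthol replicate 1. Leaving out any other library gave adjusted p up to 0.0888, 0.115 and 0.0883, respectively, all with the same direction. The count of members called thus ran from 1, on leaving out any control library, Wnt3a replicate 1 or 3, or replicate 2 or 3 of either menthol group, to 6 without menthol replicate 1. Without an FPKM minimum, *Nars1* and *Yars1* lost their calls, and *Iars1* and *Tars1* kept theirs. On the recovered reads with limma voom, 7 members were called, *Cars*, *Eprs* and *Sars1* in addition, among 294 genes in all (2.57%).

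Most of the other cytosolic genes were higher as well. With menthol, 15 of all 19 were higher, with a median log2 change of 0.077, against 49.4% higher and a median of -0.00098 over all genes tested. At an unadjusted p under 0.05, 11 of the 19 were higher and 0 lower, where 7.34% of all genes were higher and 8.14% lower. *Cars* (cysteinyl, log2 change 0.14, SE 0.037, limma adjusted p = 0.0799), *Eprs* (glutamyl and prolyl, 0.08, SE 0.020, adjusted p = 0.0834) and *Sars1* (0.11, SE 0.030, adjusted p = 0.106) came closest to the threshold without passing it. In 6 of the 19 the 2 sets of 6 libraries did not overlap, *Eprs* and *Qars1* (glutaminyl) being the 2 not called, where 0.795% of all genes were higher without overlap.

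The cytosolic synthetases also took a larger share of all reads with menthol. They held 0.338% to 0.344% of the reads in the 6 libraries without menthol and 0.350% to 0.367% in the 6 with it. Beside this, *Col1a2*, the fibroblast marker with the highest level, ran the other way in most libraries, at 113 to 126 FPKM without menthol and 109 to 113 with it. The sum of the 4 fibroblast markers was 120 to 135 FPKM without menthol and 115 to 120 with it, with no overlap, and its part in these results was not tested. The 4 cytosolic genes that were not higher included *Farsb* (the other phenylalanyl subunit), *Hars1* and *Wars1*, whose log2 changes were -0.02 to -0.0019.

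**Figure D3:**
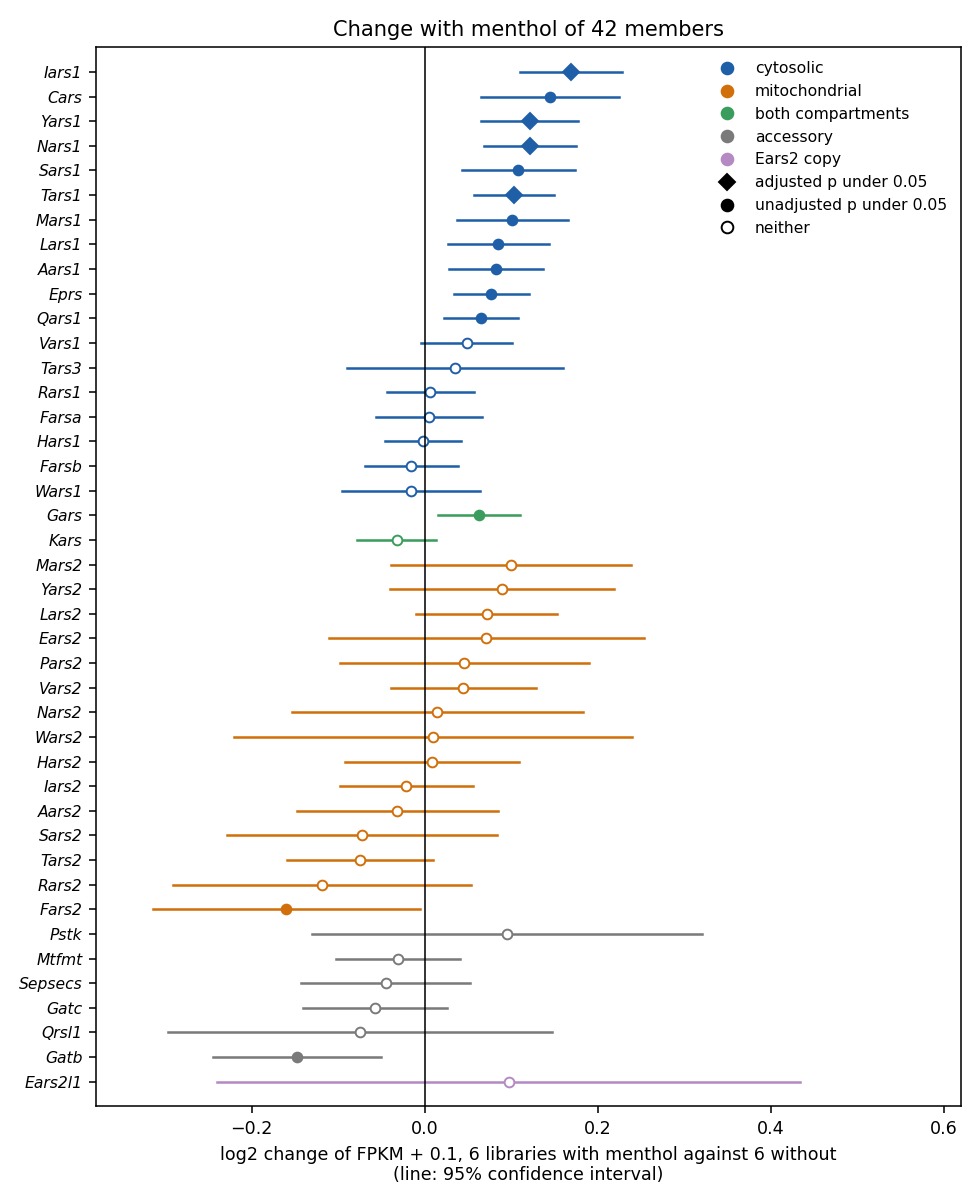
Log2 change of FPKM + 0.1 between the 6 libraries with menthol and the 6 without for 42 of the 44 members tested, with 95% confidence intervals, coloured by role; diamonds passed an adjusted p under 0.05, other filled points an unadjusted p under 0.05. The 4 called members were all cytosolic, and the intervals of the mitochondrial genes were mostly wider.

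The mitochondrial synthetases were nearly evenly split. Of the 16 tested, 9 were higher and 7 lower with menthol, with a median log2 change of 0.0089, and limma called 0 of them. At an unadjusted p under 0.05, 2 were lower and 0 higher, where 8.14% and 7.34% of all genes were, and *Fars2* was among the 2 (-0.16, SE 0.072, limma adjusted p = 0.304). *Iars2* changed by -0.02 (95% interval -0.10 to 0.06), an interval that lies below that of *Iars1* (0.11 to 0.23). The residual SD between libraries had a median of 0.11 for the mitochondrial genes and 0.046 for the cytosolic ones, and the 95% intervals of the mitochondrial changes were wider to match. The difference between the 2 sets was not tested.

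Of the 2 genes serving both compartments, *Gars* had a log2 change of 0.06 (SE 0.022, limma adjusted p = 0.192) and *Kars* one of -0.03 (SE 0.021, adjusted p = 0.492), and neither passed the threshold. Among the accessory enzymes, 5 of 6 were lower. For *Gatb*, all 6 libraries with menthol (4.79 to 5.38 FPKM) lay below the 6 without (5.44 to 6.07 FPKM), as did those of 0.742% of all genes, but the change of -0.15 (SE 0.045) did not pass the test (limma adjusted p = 0.141).

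Since the 4 called genes moved together, their promoters were searched for letters known from regulators of this pathway. RefSeq promoter windows of the rat assembly GRCr8, each from 250 bases before to 50 bases after the start, were found for 39 of the 45 members and 27457 genes in all. The letters TGATGCAA, a form of the composite element bound by ATF4 with a C/EBP partner, were present on either strand in 7 of 17 cytosolic genes (41.2%), 0 of 16 mitochondrial genes and 0.743% of all promoters. The looser TGATGNAA, which includes it, was in the same 7 cytosolic genes and 3.82% of all promoters. Among the 9363 tested genes with a window, the shares were 0.566% for TGATGCAA and 2.04% for TGATGNAA. CACGTG, the E-box, was in 5 of 17 cytosolic genes, 1 of 16 mitochondrial genes and 6.65% of all promoters. The palindromic consensus of NRF1, a regulator of nuclear genes for mitochondria, was in 0 of 17 cytosolic genes, 1 of 16 mitochondrial genes and 0.932% of all promoters. A match describes the letters only, and binding was not measured.

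The 7 windows around the composite letters are shown because they include all 4 genes called with menthol. Each reads 5′ to 3′ in the direction of its gene, with the element in capitals; TTGCATCA is TGATGCAA on the opposite strand.
Iars1, chr17:15193661-15193684, minus strand: tgtcagtaTTGCATCAcctccaga
Tars1, chr2:62114814-62114837, minus strand: gcgtcccgTTGCATCAgctggtta
Mars1, chr7:65023755-65023778, minus strand: cgttccggTTGCATCAgcgtgggc
Cars, chr1:208225337-208225360, minus strand: cgccgcggTTGCATCAgattctgg
Aars1, chr19:55908362-55908385, plus strand: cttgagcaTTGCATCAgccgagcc
Nars1, chr18:60275781-60275804, minus strand: aggtgatcTGATGCAAcgcttcag
Yars1, chr5:146820193-146820212, plus strand: agctcagcTGATGCAAcctg
The element began at -112 from the start in *Aars1*, at -27 in *Tars1*, at -24 in *Iars1*, at -17 in *Mars1* and at -14 in *Nars1*, and after the start, at 17 in *Cars* and 38 in *Yars1*, where the window ends.

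The 7 cytosolic genes with the element had log2 changes with menthol of 0.08 to 0.17, with a median of 0.12. All 7 had an unadjusted p under 0.05, and 4 were called. The 10 cytosolic genes whose window lacked it had changes of -0.02 to 0.11 and a median of 0.04, of which 7 were higher, 4 had an unadjusted p under 0.05, and 0 were called. The ranges overlap, since *Sars1* (0.108) and *Lars1* (leucyl, 0.085) lacked the letters. *Eprs* lacked them too and was higher, at 0.077, just under the lowest gene with them (*Aars1*, 0.083). Beyond the synthetases, 46 tested genes held the letters. Of these, 28 were higher with menthol, with a median of 0.0065, 5 were higher and 4 lower at an unadjusted p under 0.05, and limma called 0.

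**Figure D4:**
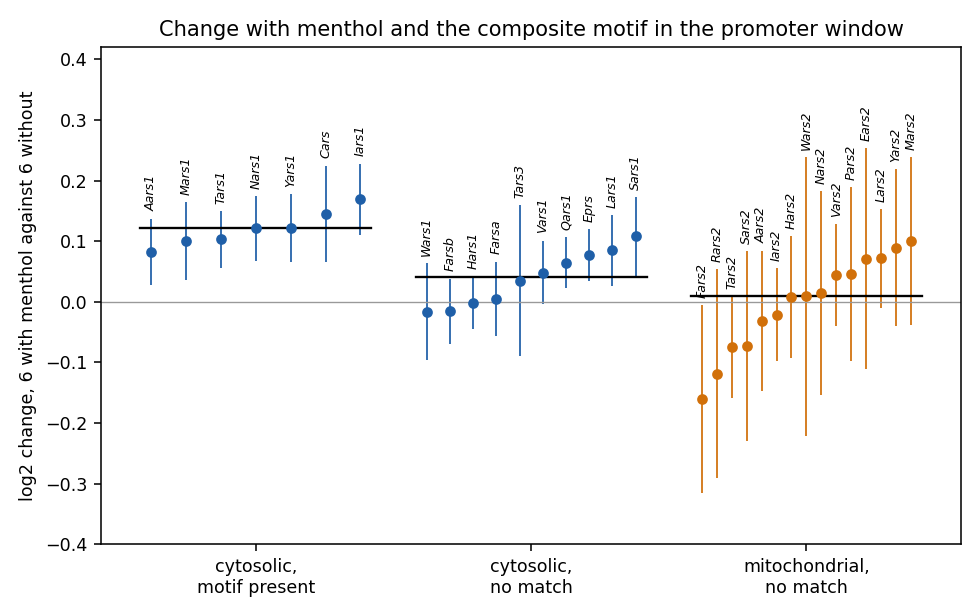
Log2 change with menthol (6 libraries against 6) with 95% confidence intervals for cytosolic genes with the composite letters in the promoter window, cytosolic genes without a match and mitochondrial genes; black lines are medians. The 7 genes with the element lay between 0.08 and 0.17, and all their intervals were above 0.

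Without Wnt3a and on top of Wnt3a, menthol was also compared in 3 libraries against 3. Against control, menthol called 0 members (0.105% of all genes), and 60 genes (0.524%), *Nars1* among them, were called by limma voom. At an unadjusted p under 0.05, 11 members were higher and 0 lower, where 4.51% of all genes were higher and 4.82% lower. *Nars1* (0.14, SE 0.035, limma adjusted p = 0.175), *Yars1* (0.14, SE 0.037, adjusted p = 0.241) and *Iars1* (0.12, SE 0.039, adjusted p = 0.368) had the lowest p, and 17 of 19 cytosolic genes were higher.

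On top of Wnt3a, menthol again called 0 members by limma (0.0524% of all genes). *Iars1* was the only member called by limma voom (1.25% of all genes) and on leaving out Wnt3a replicate 3, there just under the threshold (limma adjusted p = 0.04995), and its log2 change of 0.22 (SE 0.039, limma adjusted p = 0.0658) was the one with the lowest p. *Tars1* (0.11, SE 0.031, adjusted p = 0.142) and *Eprs* (0.10, SE 0.028, adjusted p = 0.169) followed. At an unadjusted p under 0.05, 11 members were higher and 4 lower, where 7.13% and 7.37% of all genes were. The 11 were all cytosolic.

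Cells given both stimuli, compared with control, had 0 members called by limma (0.83% of all genes) and 5 by limma voom (2.28% of all genes), namely *Nars1*, *Lars1*, *Iars1*, *Sars1* and *Cars*. By limma, *Nars1* (0.14, SE 0.035) and *Tars1* (0.12, SE 0.031) had an adjusted p of 0.0937 and *Lars1* (0.15, SE 0.038) one of 0.0952. At an unadjusted p under 0.05, 12 members were higher and 6 lower, where 6.74% and 6.76% of all genes were. The higher ones included 9 cytosolic genes, and the 6 lower ones included 0 cytosolic genes. The menthol and combined groups share the control libraries, so these comparisons are not independent.

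Per library, the median log2 difference of the 19 cytosolic genes from the control mean was 0.040, 0.059 and 0.098 with menthol and 0.044, 0.099 and 0.079 with both stimuli. It was 0.038, 0.010 and -0.012 with Wnt3a alone and -0.0042 to 0.0046 in control. All 6 libraries with menthol were above the other 6, the 2 replicates numbered 1 being the lowest of them, close to Wnt3a replicate 1. The same median over all genes tested stayed between -0.0062 and 0.013 in every library.

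**Figure D5:**
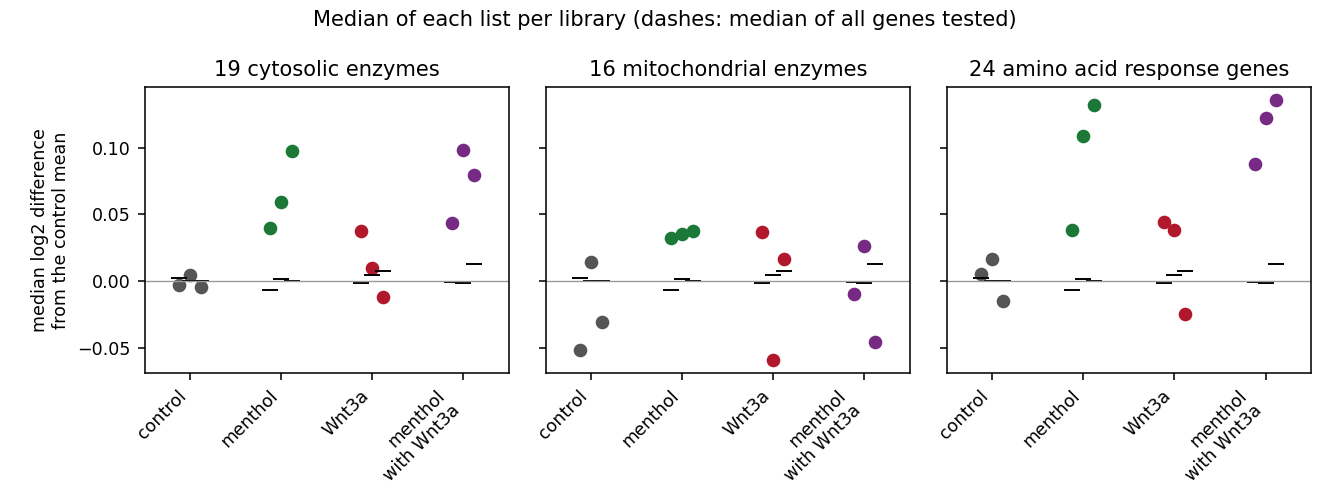
Median log2 difference from the control mean in each library for the cytosolic enzymes, the mitochondrial enzymes and the amino acid response genes, with the median of all genes tested as black dashes. The cytosolic median was 0.040 to 0.099 in the 6 libraries with menthol, and the mitochondrial medians of the groups overlapped.

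With Wnt3a alone against control, 1 member rose, the accessory enzyme *Mtfmt*, whose product formylates the initiator methionyl-tRNA of mitochondria, where 0.437% of all genes were called. It had 9.48, 9.35 and 9.56 FPKM in control and 11.7, 10.5 and 11.3 FPKM with Wnt3a, which is 1.18-fold (log2 change 0.24, SE 0.047, limma adjusted p = 0.0493). With menthol it had 9.66, 9.63 and 10.2 FPKM, and with both stimuli 10.3, 10.2 and 10.4 FPKM. The Wnt3a libraries lay above all others. The call was lost on leaving out any library but Wnt3a replicate 3 (limma adjusted p up to 0.169), with limma voom (0.114), with libraries centred on their median (0.0523), without a minimum FPKM (0.0788) and with only the 2 groups fitted (0.128).

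Wnt3a had 3 members higher and 1 lower at an unadjusted p under 0.05, where 8.17% and 6.91% of all genes were. *Sepsecs* (0.15, SE 0.064, limma adjusted p = 0.286) was among the higher ones, and *Vars1* (valyl, -0.08, SE 0.035, adjusted p = 0.305) was the lower one. The cytosolic median was 0.014, against 0.0042 for all genes tested. Over both menthol levels, 6 libraries with Wnt3a against 6 without, limma and limma voom called 0 members (0.803% and 2.44% of all genes), and *Mtfmt* had a change of 0.15 (SE 0.033, limma adjusted p = 0.0512) with all 6 Wnt3a libraries above the other 6. It was called at a minimum of 1 FPKM and without Wnt3a replicate 2 (adjusted p = 0.0469 and 0.0298). *Lars2* (mitochondrial leucyl, 0.09, SE 0.038, adjusted p = 0.284) and *Lars1* (0.07, SE 0.027, adjusted p = 0.293) came next, and 3 members were higher and 1 lower at an unadjusted p under 0.05, where 7.61% and 6.59% of all genes were.

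Wnt3a on top of menthol called 0 members by limma and by limma voom (0.0961% and 0.288% of all genes). *Tars3* (-0.21, SE 0.082, limma adjusted p = 0.634), *Lars2* (0.13, SE 0.054, adjusted p = 0.634) and *Vars2* (mitochondrial valyl, -0.13, SE 0.055, adjusted p = 0.694) had the lowest p. With an unadjusted p under 0.05, 1 member was higher and 3 were lower, where 3.45% and 3.27% of all genes were.

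Whether Wnt3a altered the change with menthol was tested as the interaction of the 2 stimuli, in which limma and limma voom called 0 genes (0%). At an unadjusted p under 0.05, 0 members were higher and 2 lower, where 3.09% and 3.89% of all genes were. *Mtfmt* was among the 2 (-0.17, SE 0.066, unadjusted p = 0.0253, limma adjusted p = 0.715), and *Tars3* was close in p without reaching it (-0.21, SE 0.12, unadjusted p = 0.0867, adjusted p = 0.737). For *Iars1* the interaction was 0.10 (SE 0.055, limma adjusted p = 0.748), so its larger change in the presence of Wnt3a (0.22 against 0.12) did not pass this test. The median ratio of cytosolic to mitochondrial enzyme over the 19 pairs was 3.87 on the log2 scale with menthol, 3.90 with Wnt3a and 3.96 with both stimuli, beside 3.87 in control. In each group this was the value of *Eprs* to *Pars2*, so it does not show changes within other pairs. From control to menthol these went both ways, as from 4.88 to 5.13 for arginine and from 2.92 to 2.80 for valine. In none of the 8 comparisons did a member change more than 2-fold at an adjusted p under 0.05, which 0% to 0.0175% of all genes did.

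Genes that work beside the synthetases gave the context. Of the 3 scaffold genes of the multisynthetase complex, 3 were higher with menthol (6 against 6) and 0 were called, with *Aimp2* at 0.08 (SE 0.026, limma adjusted p = 0.18) and *Aimp1* lowest in p in the interaction (-0.13, adjusted p = 0.727). Of 8 genes of elongation factors and their subunits or exchange factors, 4 were higher with menthol and 0 were called in any comparison by limma. Their lowest p came with Wnt3a, for *Eef1a1* (0.08, SE 0.023, limma adjusted p = 0.123, 6 against 6) and *Eef1g* (0.08, SE 0.025, adjusted p = 0.174, against control). Of the 3 tested deacylases that clear mischarged transfer RNA, 0 were called, and *Prorsd1* (0.37, SE 0.11, adjusted p = 0.156, both stimuli against control) and *Aarsd1* (-0.11, SE 0.046, adjusted p = 0.282, both stimuli against Wnt3a) had the lowest p.

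Of 24 tested genes of the amino acid response under ATF4, 22 were higher with menthol in the same comparison (49.4% of all genes), with a median log2 change of 0.10. Of these, 4 rose, where 0.489% of all genes did: *Psat1* (serine synthesis, 0.25, SE 0.042, limma adjusted p = 0.0114), *Slc7a5* (a transporter of large neutral amino acids, 0.18, SE 0.030, adjusted p = 0.0133), *Mthfd2* (mitochondrial folate metabolism, 0.17, SE 0.033, adjusted p = 0.0251) and *Shmt2* (mitochondrial glycine synthesis from serine, 0.12, SE 0.026, adjusted p = 0.0498). The calls of *Psat1* and *Slc7a5* held whichever library was left out, but that of *Psat1* was lost without an FPKM minimum (limma adjusted p = 0.0534). *Mthfd2* was lost in that setting (0.0573) and without control replicate 2 or 3, menthol replicate 3, Wnt3a replicate 1 or 2, or menthol with Wnt3a replicate 2 (limma adjusted p up to 0.0781). *Shmt2* was lost without any library but menthol replicate 1 (limma adjusted p up to 0.124), without a minimum (0.0975) and with libraries centred on their median (0.0608). It was also lost with the replicate number as a block. *Psat1* had 53.2, 55.4 and 51.6 FPKM in control, 51.1, 53.0 and 54.0 with Wnt3a, 56.0, 64.4 and 67.4 with menthol and 59.9, 65.0 and 66.2 with both stimuli. Its libraries with menthol lay above all others, with replicate 1 the lowest in both menthol groups, as for several synthetases. *Atf4* itself had a log2 change of 0.07 (SE 0.032, limma adjusted p = 0.298). At an unadjusted p under 0.05, 15 of the 24 were higher and 0 lower, where 7.34% and 8.14% of all genes were. The list did not move evenly. The 22 counted as higher include *Ddit4* (0.0020), *Chac1* (0.0040) and *Ddit3* (0.041), and the 2 lower ones were *Pycr1* (-0.046) and *Atf3* (-0.044).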

How the data were processed

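RNA from 12 ND7/23 libraries (4 groups of 3) was used. The group and replicate of each library were taken from its label. By the supplementary methods and the submitters' processing notes, the authors filtered reads with fastp, aligned them with HISAT to mRatBN7.2, counted them with HTSeq-count and deposited FPKM for 21556 genes, without pooling replicates. FPKM is relative to library totals, so a rise of abundant genes lowers the rest. Whole reads could be recovered for 21556 of 21556 genes (tolerance 1e-06), of which 1804 were above 0 in 1 library only. Intervals cover 95% and rest on the spread between libraries.

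The main test was limma 3.58.1 (R 4.3.3) on log2(FPKM + 0.1), with all 4 groups in 1 fit, a variance trend and Benjamini-Hochberg adjustment over the 11451 genes with a mean of at least 0.5 FPKM, in 8 comparisons. Fold changes are on that scale and understate those of low genes. The fit was tested on simulated data. Alternatives were other pseudocounts (0.01 and 1) and minimums (1 FPKM or none), centring, a replicate block, only the groups compared, limma voom on recovered reads, other call rules and leaving out each library.

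Members named were those called, the 3 with the lowest p per comparison, the 3 highest and lowest enzymes per compartment, the extreme pairs, the dual enzymes and *Cars2*; of other lists, called genes and the 2 with the lowest p. Results of 2 members are not reported here, although counts and medians include them. Other genes were named after their values were seen. Members and lists were chosen with earlier results of these data known. The deposited symbols *Cars*, *Eprs*, *Gars* and *Kars* are *Cars1*, *Eprs1*, *Gars1* and *Kars1* in RefSeq.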

Additional observations from a re-analysis of the deposited data

Results flagged for a closer look

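*Mtfmt* was flagged because its change with menthol ran in opposite directions without and with Wnt3a. The 3 menthol libraries (9.63 to 10.2 FPKM) lay above the 3 control libraries (9.35 to 9.56 FPKM), as did those of 7.48% of all genes. The 3 libraries with both stimuli (10.2 to 10.4 FPKM) lay below the 3 with Wnt3a (10.5 to 11.7 FPKM), as did those of 8.57% of all genes. The interaction, the test of this difference, was -0.17 on the log2 scale (SE 0.066, unadjusted p = 0.0253) and did not pass adjustment (limma adjusted p = 0.715).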

How the results depend on the processing

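All 77 log2 changes of named genes kept their direction under every alternative run. Of the counts of members called, menthol over both Wnt3a levels (4) became 2 without an FPKM minimum, 7 with limma voom, 0 with a 2-fold threshold, 15 at an unadjusted p and 1 to 6 on leaving out a library. Wnt3a against control (1) became 0 without a minimum, with centring, with voom, with only the groups compared and with a 2-fold threshold, 4 at an unadjusted p, and 0 to 1 on leaving out a library. The other counts were 0. They became 1 (menthol against control), 1 (both stimuli against Wnt3a) and 5 (both stimuli against control) with voom, and 11, 15, 18, 4 (both stimuli against menthol), 2 (interaction) and 4 (Wnt3a over both menthol levels) at an unadjusted p. Wnt3a over both menthol levels gave 1 call (*Mtfmt*) at a minimum of 1 FPKM and 0 to 1 on leaving out a library, as did both stimuli against Wnt3a. The cause of these moves was not tested. With the replicate number as a block, 1 member was called in each of the last 2 comparisons and 4 in that of menthol over both Wnt3a levels, and *Shmt2* lost its call with menthol (limma adjusted p = 0.0614). Same-numbered libraries deviated together by a correlation of -0.055 to 0.15 over 18 pairs of groups, over 0.1 in 1, so the numbers were not taken as pairs. The median log2 ratio of cytosolic to mitochondrial enzyme in control (3.87) was 3.85 to 3.95 on leaving out a control library, and the median change with menthol was 0.067 to 0.086 for cytosolic and -0.019 to 0.028 for mitochondrial enzymes on leaving out any library. With 90 to 152 reads for *Cars2*, the depth limits what the low mitochondrial genes can show.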
